A study of Homo sapiens with 12 samples.

Results

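Small structured non-coding RNAs were followed through RNA immunoprecipitation (IP) of ADAR3 from the human glioblastoma line U373-MG. The RNAs were chosen by gene, through 10 Ensembl IDs for 7 genes: RN7SK, RN7SL1, RN7SL2, RMRP, RPPH1, TERC and VTRNA1-1. Of these IDs, 6 matched a row in both deposited tables, 1 for each gene except RN7SL2, which was not analysed here. These 6 genes stand among 31707 gene IDs in the tables. All cells were exposed to ultraviolet light to crosslink protein to RNA, then lysed by sonication, and ribosomal RNA was depleted before library preparation. There were 12 libraries, 4 in each of 3 groups: an antibody to endogenous ADAR3 was used for the first (ADAR3 IP), pre-immune serum for the second (pre-immune IP), and the last was RNA not taken through IP (input). An input library was made from 1 µg of total RNA and an IP library from the whole recovery, so the data compare proportions of RNA and not amounts: a smaller share in ADAR3 IP can go with a larger amount of that RNA. The labels' molecule field says polyA RNA, while their protocol describes ribosomal depletion without a step that selects poly(A) tails, which these RNAs lack in their mature form. The labels do not name separate cultures for the replicates, and p-values therefore reflect library-to-library spread, part or all of which may be technical.

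ADAR3 carries double-stranded RNA-binding domains, and each RNA described here folds into base-paired stems, in most cases as the core of a protein-RNA particle. RN7SK holds the elongation kinase P-TEFb in an inactive particle in the nucleus. RN7SL1 encodes the RNA scaffold of the signal recognition particle, which brings ribosomes making secreted and membrane proteins to the endoplasmic reticulum, and Alu repeats descend from this RNA. RMRP is the RNA of RNase MRP, which cleaves the ribosomal RNA precursor, and RPPH1 is the catalytic RNA of RNase P, which trims the leader of transfer RNA precursors; both enzymes share most of their proteins. TERC is the template RNA of telomerase, made by RNA polymerase II. VTRNA1-1 is a short RNA of the vault particle.

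The RNAs lie on 5 chromosomes of GRCh38, and the positions here are from RefSeq's annotation of GRCh38.p14. RN7SL1 (ENSG00000276168) lies at chr14:49586580-49586878, is 299 bases long and overlaps the annotated span of RPS29. RMRP (ENSG00000269900) spans 270 bases at chr9:35657750-35658019, 272 bases from CCDC107. RPPH1 (ENSG00000259001) spans 341 bases at chr14:20343071-20343411, 223 bases from PARP2. RN7SK (ENSG00000202198) occupies 332 bases at chr6:52995620-52995951, and TERC (ENSG00000270141) 451 bases at chr3:169764610-169765060. VTRNA1-1 (ENSG00000199990), the shortest at 98 bases, lies at chr5:140711276-140711373 and overlaps the uncharacterized gene LOC105378198. RMRP, RPPH1, RN7SK and TERC overlap 0 other genes in that table. By gene symbol alone, that table names 684 genes in the RN7SL pseudogene series and 293 in the RN7SK series, and 1 and 2 pseudogenes for RMRP and RPPH1. The sequences of these genes were not compared here. How reads matching several genes were counted is not given in the sources used here. The levels of RN7SL1 and RN7SK are uncertain in that respect, and reads of RN7SL2 may be among those of RN7SL1.

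Depth was 23999234 to 30156884 gene-assigned reads in ADAR3 IP, 1875461 to 4946149 in pre-immune IP and 4873428 to 12772412 in input. Levels are given as CPM, reads per 1000000 assigned reads of the library, from whole reads recovered from the deposited values. Dixon's test on CPM marked no library of RN7SK, RN7SL1, RMRP, RPPH1 or TERC in its group of 4, although values of TERC rest on single pre-immune IP libraries, as given beside them.

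The 6 RNAs made up 2.99% ± 0.358 of all assigned reads in input, 0.335% ± 0.0510 in pre-immune IP and 0.0556% ± 0.0198 in ADAR3 IP (SD over 4 libraries each). Their joint share was thus 53.8-fold lower in ADAR3 IP than in input and 8.92-fold lower in pre-immune IP. Between the IPs it was 6.03-fold lower with the ADAR3 antibody. RN7SL1, RMRP and RPPH1 supplied 97.3% to 99.97% of these reads in every library, so the joint share describes these 3 and not TERC, whose mean CPM differed 1.02-fold between the IPs and 3.54-fold between input and ADAR3 IP. All 4 libraries of each group lay apart from those of the other groups in this share, which ranged from 0.0360% to 0.0771% in ADAR3 IP, 0.274% to 0.391% in pre-immune IP and 2.53% to 3.37% in input. No test was made of this sum.

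**Figure D1:**
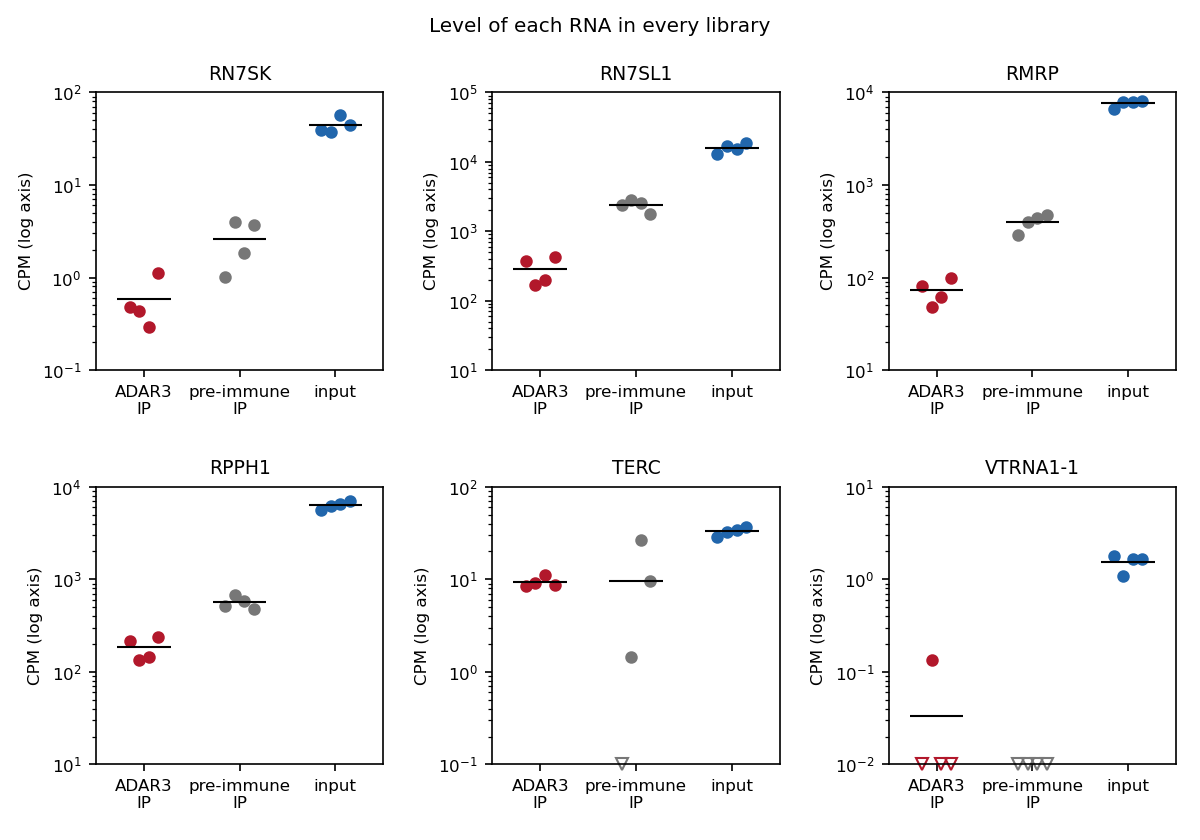
Level of each RNA in all 12 libraries, in CPM on log axes that differ between panels. Each point is a library, placed by replicate number from left to right, lines are group means, and open triangles at the lower edge are libraries with 0 reads. RN7SL1, RMRP and RPPH1 show 3 separate levels, while TERC spreads from 0 to 26.9 CPM over the pre-immune IP libraries.

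RN7SL1 was the most abundant gene by reads in all 4 input libraries, with 12982, 17142, 15050 and 18417 CPM in replicates 1 to 4. In pre-immune IP it held 2362, 2825, 2549 and 1779 CPM and ranked between 11 and 17 among genes. ADAR3 IP held 370.3, 167, 201 and 422 CPM, and its rank lay between 267 and 1090. The groups did not overlap: the highest ADAR3 IP library lay below the lowest pre-immune IP library, and the highest of those below the lowest input library. Within ADAR3 IP, replicates 1 and 4 were high and replicates 2 and 3 low, and the highest was 2.53 times the lowest. In pre-immune IP this spread was 1.59-fold.

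RMRP, the RNase MRP RNA, was at 6600, 7940, 7824 and 8157 CPM in the input replicates, ranking 7 or 8 by reads. Pre-immune IP libraries held 291, 403, 438 and 477 CPM of it, and ADAR3 IP libraries 81.7, 47.8, 62.3 and 99.4 CPM. Again all 3 groups were separate. RPPH1, the RNase P RNA, followed at 5603, 6221, 6440 and 7052 CPM in input, where it ranked 9 or 10. It held 515, 679.8, 579 and 472 CPM in pre-immune IP. ADAR3 IP libraries held 216, 135, 144 and 239 CPM, below all of these. The order of the ADAR3 IP libraries, from replicate 4 as the highest through 1 and 3 to 2, was the same for RPPH1, RMRP and RN7SL1. RN7SK shared its highest library, replicate 4, with them, and TERC was highest in replicate 3. Assigned reads were fewest in replicate 4 of ADAR3 IP (23999234), and the part of depth in this order was not tested.

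RN7SK was far less abundant in the counts, with 39.7, 37.3, 57.0 and 44.4 CPM in input. Pre-immune IP held 1.01, 3.93, 1.82 and 3.73 CPM, from 5 to 11 reads a library, and ADAR3 IP 0.483, 0.431, 0.294 and 1.13 CPM, from 8 to 27 reads. Replicate 4 of ADAR3 IP lay above replicate 1 of pre-immune IP, so these groups overlapped, while both lay below every input library. TERC, the telomerase RNA, differed in its spread between replicates. Input held 29.0, 32.8, 33.7 and 36.7 CPM and ADAR3 IP a narrow 8.39, 9.09, 11.1 and 8.71 CPM, from 209 to 303 reads. The pre-immune IP libraries held 0, 1.43, 26.9 and 9.60 CPM of TERC, from 0, 4, 118 and 18 reads, on both sides of every ADAR3 IP library.

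VTRNA1-1 was near the limit of detection. Input held 1.80, 1.09, 1.64 and 1.65 CPM, from 58 reads in all. ADAR3 IP had 4 reads, all in replicate 2 (0.133 CPM), and pre-immune IP had 0 reads in 4 libraries, which allows up to 0.214 CPM over the group (3 reads).

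Scaled to length, the order in input was RN7SL1, RMRP, RPPH1, RN7SK, TERC and VTRNA1-1, at 53170 ± 7989, 28261 ± 2594, 18560 ± 1754, 134 ± 26.5, 73.2 ± 7.03 and 15.8 ± 3.20 CPM per kilobase (SD, n = 4). RMRP and RPPH1 changed places in ADAR3 IP, which held 539 ± 152 CPM per kilobase of RPPH1 against 270 ± 83.5 of RMRP. In pre-immune IP these 2 levels, 1647 ± 265 and 1489 ± 297, differed by less than their spread. There RPPH1 was the higher in replicates 1 to 3, and RMRP in replicate 4, at 1767 against 1384. TERC stood above RN7SK in ADAR3 IP, at 20.7 ± 2.73 against 1.76 ± 1.11 CPM per kilobase. The means had the same order in pre-immune IP, 21.0 ± 27.4 against 7.91 ± 4.33, where TERC spread widely.

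Setting the antibody IP against the serum IP asks which RNAs took a larger or smaller share with the ADAR3 antibody than with serum. RN7SL1, RMRP and RPPH1 were lower in ADAR3 IP, TERC did not pass the test, and RN7SK and VTRNA1-1 were too low for it. Of 4 RNAs tested, 3 were called lower and 0 higher (limma on log2 of the normalized count plus a pseudocount of 1, with an adjusted p under 0.05 by Benjamini-Hochberg), and 0 were higher at an unadjusted p under 0.05 or with edgeR or DESeq2. Over all 11112 genes tested, 1.74% were called lower and 2.33% higher, and the median log2 difference was 0.25. The 4 RNAs had been named with results of these data known, so their count is a description.

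RN7SL1 had deposited normalized counts of 3280, 1510, 1762 and 3756 with the antibody and of 22502, 27286, 22395 and 17257 with serum. The log2 difference, ADAR3 IP minus pre-immune IP, was -3.20 ± 0.28 (SE; limma, adjusted p = 9.517e-05), an 8.68-fold ratio of group means. It was the 33rd lowest difference of the 11112 genes. For RMRP the means were 646 ± 199 and 3784 ± 766 normalized counts (SD, n = 4 each), and the log2 difference was -2.58 ± 0.24 (SE; limma, adjusted p = 0.000146). RPPH1 moved least of these RNAs, from 5285 ± 880 in pre-immune IP to 1633 ± 457 in ADAR3 IP, with a log2 difference of -1.72 ± 0.20 (SE; limma, adjusted p = 0.000838). For each of these 3 RNAs all 4 ADAR3 IP libraries lay below all 4 pre-immune IP libraries, as they did for 5.31% of genes tested. Leaving out any 1 of the 8 libraries kept all 3 calls.

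TERC gave a log2 difference of 1.80 ± 1.61 (SE; limma, adjusted p = 0.568), with a 95% interval of -1.74 to 5.34, which shows neither a change nor its absence. Its group means were nearly equal, 82.9 ± 10.4 normalized counts with the antibody and 85.8 ± 108 with serum (SD, n = 4 each). The pre-immune library without a TERC read decides the fitted value: without pre-immune IP replicate 1 it was 0.27, and without replicate 3, which holds most of the TERC reads of that group, 2.90. The authors' deposited table gives TERC a log2 fold change of -0.05, and edgeR with its own filter gave 0.04.

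The normalized counts of RN7SK were 5.19 ± 3.29 with the antibody and 24.96 ± 14.3 with serum (SD, n = 4 each), below the minimum mean of 50 set for the test. Pooled over libraries, 62 reads with the antibody and 31 with serum gave a share 3.94-fold higher in pre-immune IP, with a 95% exact interval of 2.47 to 6.16. Intervals on pooled reads cover counting error only and take reads as independent. Its call depended on the test. It was -2.22 on the log2 scale in the authors' deposited table, with an adjusted p of 0.0281, whereas edgeR's quasi-likelihood test with its own filter gave -2.14 and an adjusted p of 0.211. limma without a minimum gave -2.0 and an adjusted p of 0.328. Genes called lower in ADAR3 IP made up 5.63% of those with an adjusted p in the authors' deposited table and 1.69% of those edgeR tested. VTRNA1-1, with 4 reads against 0, gives no comparison of the IPs.

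**Figure D2:**
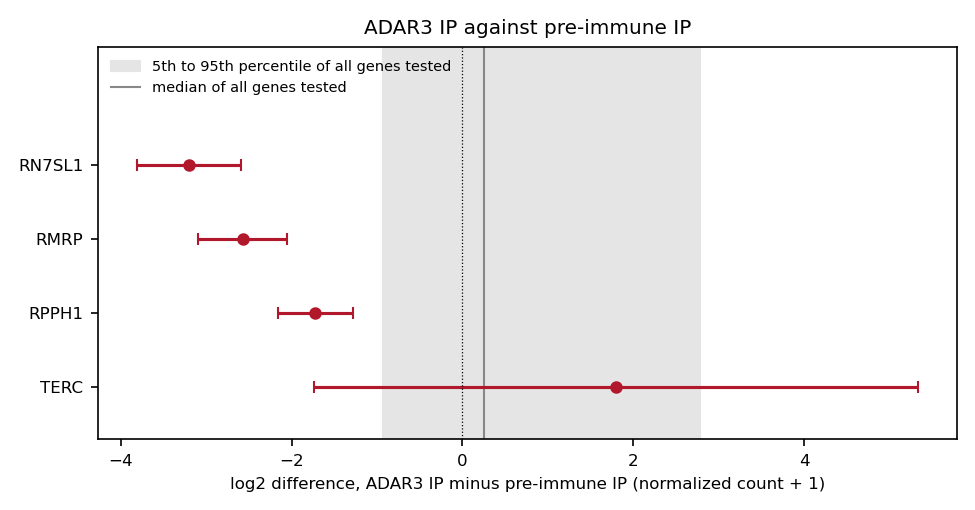
Log2 difference between ADAR3 IP and pre-immune IP for the 4 RNAs tested, with 95% intervals from limma on log2(normalized count + 1), n = 4 libraries a group. The grey band spans the 5th to 95th percentile of all 11112 genes tested and the solid grey line is their median, 0.25. The intervals of RN7SL1, RMRP and RPPH1 lie wholly below 0 and that of TERC crosses it.

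Input gives the proportions of RNA in libraries not taken through IP. The authors scaled the input table apart from the IP table, so CPM from recovered reads were set side by side and the differences were not tested. For all 6 RNAs the 4 ADAR3 IP libraries were below the lowest input library, and so were the 4 pre-immune IP libraries. VTRNA1-1 adds little to this count, since it rests on 0 to 4 reads in an IP library against 8 to 23 in an input library. Over the 14020 genes in both tables with a mean of at least 10 normalized counts in input, that held for 29.2% with ADAR3 IP and 21.3% with pre-immune IP. Their median log2 ratio to input was -0.01 with the antibody and -0.14 with serum. The 14020 genes were picked by input level, with a limit set after seeing the data, so genes high only in an IP could not enter. These percentages are therefore a description.

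RMRP was lowest relative to input, with a ratio of mean CPM of 105 for input over ADAR3 IP and 19.0 for input over pre-immune IP. Of the 14020 genes, 10 had a lower ratio than RMRP in ADAR3 IP. RN7SK was 76.5-fold and 17.0-fold below input in the same order, RN7SL1 54.8-fold and 6.68-fold, and RPPH1 34.5-fold and 11.3-fold. The ratios of RN7SK, RN7SL1 and RPPH1 in ADAR3 IP had 13, 16 and 23 genes below them. Counts of genes below an RNA include the other RNAs described here where these are lower. In pre-immune IP 739 to 1029 genes lay below RMRP, RN7SK, RPPH1 and RN7SL1, but only 10388 to 11879 of the 14020 genes had a read in a library there, against 13902 to 13982 in ADAR3 IP, so the ranks of the IPs cannot be compared. The 100 genes highest in input were picked by input level, so genes high only in an IP are not among them. Of these 100, 0 had a lower ratio than RMRP in either IP. With the antibody 2 of them lay below RPPH1, namely RMRP and RN7SL1, and 1 below RN7SL1, namely RMRP. With serum 1 lay below RPPH1, again RMRP, and 4 lay below RN7SL1, with RMRP and RPPH1 among them. Among RMRP, RN7SK, RN7SL1 and RPPH1, RN7SL1 thus kept the largest part of its input share in pre-immune IP, and RPPH1 in ADAR3 IP.

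TERC was 3.54-fold below input in ADAR3 IP, where 455 genes had a lower ratio, and 3.49-fold in pre-immune IP. The pre-immune value rests largely on replicate 3: without it, the log2 ratio of TERC to input moved from -1.80 to -3.17. For VTRNA1-1 the pooled reads gave a share 42.7-fold higher in input than in ADAR3 IP, with a 95% exact interval of 15.8 to 162. That value rests on 1 library, since all 4 reads were in ADAR3 IP replicate 2. Without it ADAR3 IP held 0 reads, the ratio has no finite value, and its lower 95% exact limit was 32.6-fold. Against pre-immune IP with 0 reads, the lower 95% exact limit was 5.69-fold.

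**Figure D3:**
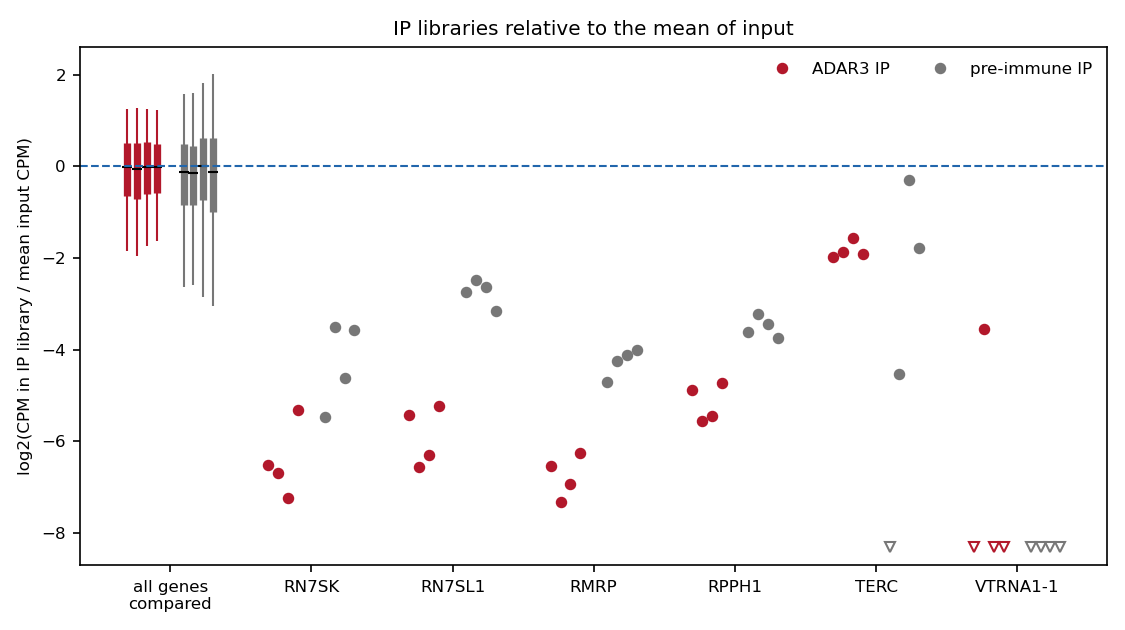
Log2 ratio of CPM in each IP library to the mean CPM of the 4 input libraries, with 0 marking input. Points are libraries, open triangles are libraries with 0 reads, and at the left each bar gives all genes compared in 1 library that had a read there (thin line, 5th to 95th percentile; thick line, quartiles; tick, median). RN7SK, RN7SL1, RMRP and RPPH1 lie below the 5th percentile of genes in every ADAR3 IP library.

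These ratios were set beside those of other genes abundant in input. Of 62 genes with at least 1000 CPM in input, 3 were at least 8-fold lower in mean CPM in ADAR3 IP than in input: RN7SL1, RMRP and RPPH1. The largest such ratio among the other 59 was 6.03. In pre-immune IP RMRP and RPPH1 passed 8-fold, as did 1 of the other 59, at 8.66, and RN7SL1 did not. These limits were set after the values were seen. The 62 genes were picked by input level, so genes high only in an IP could not enter. That RN7SL1, RMRP and RPPH1 alone passed in ADAR3 IP is therefore a description. A full order of ADAR3 IP below pre-immune IP below input in all libraries held for RN7SL1, RMRP and RPPH1, and for 1.31% of the 14020 genes.

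Ratios of reads between RNAs within a library need no scaling between tables and show whether the RNAs kept their proportions. A set of 2 ratios in 3 pairs of groups gave 6 tests, each an exact two-sided permutation test over libraries with Benjamini-Hochberg adjustment, where the smallest p that 4 against 4 can give is 0.0286. The ratio of RMRP to RPPH1 was 1.18, 1.28, 1.21 and 1.16 in the input replicates. It was 0.564, 0.592, 0.756 and 1.01 in pre-immune IP and 0.378, 0.353, 0.432 and 0.416 in ADAR3 IP. The groups did not overlap in any of the 3 pairs (exact permutation p = 0.0286 and adjusted p = 0.0429 for each pair, n = 4 libraries a group). With 10 reads added to each count the values hardly moved and the adjusted p by exact permutation was 0.0571, since fewer of the 6 tests then reached the smallest p. RMRP was thus 3.06-fold lower relative to RPPH1 in ADAR3 IP than in input, and 1.81-fold lower in ADAR3 IP than in pre-immune IP. How often ratios of other gene pairs lie apart between these groups was not examined, for this or any other ratio here.

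RN7SL1 and RPPH1 were set side by side after their values had been seen, so their ratio was not tested. Reads of RN7SL1 per RPPH1 read were 2.51 ± 0.214 in input, 4.23 ± 0.352 in pre-immune IP and 1.53 ± 0.255 in ADAR3 IP (SD over 4 libraries each). The ratio moved up from input to pre-immune IP and down from input to ADAR3 IP, and the libraries of the 3 groups did not overlap. Between the IPs it differed 2.79-fold.

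Per 1000 reads of RN7SL1 there were 2.86 ± 0.724 reads of RN7SK in input, 1.16 ± 0.746 in pre-immune IP and 2.00 ± 0.718 in ADAR3 IP (SD over 4 libraries each). Pre-immune IP lay below input in all libraries (exact permutation p = 0.0286, adjusted p = 0.0429, n = 4 libraries a group), but with 10 reads added to each count, against 5 to 27 reads of RN7SK itself in an IP library, that difference no longer passed. ADAR3 IP did not differ past the threshold from pre-immune IP (exact permutation p = 0.143, adjusted p = 0.171) or from input (exact permutation p = 0.2, adjusted p = 0.2). The log2 difference from input, -0.55 ± 0.32 (SE), leaves room for a change as for none.

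**Figure D4:**
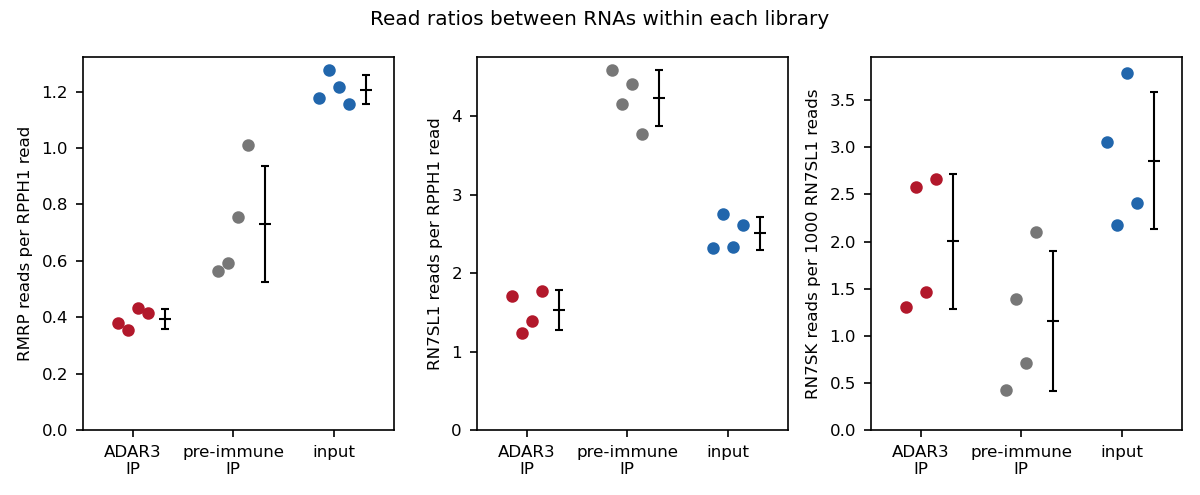
Reads of 1 RNA per read of another within each library, for RMRP over RPPH1, RN7SL1 over RPPH1, and RN7SK per 1000 reads of RN7SL1, on axes from 0. Points are libraries and the bars beside them give mean ± SD, n = 4 a group. RMRP over RPPH1 falls from 1.21 in input to 0.395 in ADAR3 IP, RN7SL1 over RPPH1 is highest in pre-immune IP, and the RN7SK ratio overlaps between the IPs.

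The gene whose CPM followed RN7SL1 most closely over the 12 libraries was ENSG00000122026, with a Pearson r of 0.998 on log2(CPM + 1) among 10432 genes. Its levels were 129.7 ± 6.19 CPM in input, 63.4 ± 4.18 in pre-immune IP and 29.1 ± 4.74 in ADAR3 IP (SD over 4 libraries each), a smaller span than that of RN7SL1. For RN7SK the closest was ENSG00000156508 (r of 0.987), at 2469 ± 126, 1178 ± 181 and 919 ± 36.9 CPM in the same order. These values share 3 group levels and their libraries, and are a description.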

How the data were processed

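The genes and lists here were chosen with earlier results of these data known. Per the submitters' processing notes, STAR 2.7.7a, featureCounts, DESeq2 and GRCh38 were used, in roles not given there. The authors deposited a normalized signal, in which each library's gene counts are divided by that library's size factor, with 1 table for the 8 IP libraries and 1 for the 4 input libraries. All values (100%) came out as whole reads once divided by the smallest value of their library (tolerance 0.001 reads), so reads, depths and CPM were recovered. The authors deposited log2 fold changes and p-values of ADAR3 IP over pre-immune IP beside them, quoted only where named.

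limma 3.58.1 (R 4.3.3) was fitted to log2(value + 1) for all genes with a mean of at least 50 over the 8 IP libraries, with a trend in the prior variance and p-values adjusted by Benjamini-Hochberg, at 0.05. The pseudocount shrinks log2 differences of low genes: that of TERC was 2.64 with 0.1 and 0.90 with 10. A library with 0 reads can still move the log2 fit away from the group means, as for TERC. The median difference over all genes tested was 0.25 with limma and -0.00063 with edgeR on the same genes. The minimum of 50 came from an earlier analysis of these data, and the limit of 10 in input was set after seeing the data. Alternatives were edgeR 4.0.16 and DESeq2 1.42.0 on recovered reads, other pseudocounts, minimums, scalings and variance models, a replicate block and leaving out each library. Scripts were tested on simulated data. The ratios of RMRP to RPPH1 and RN7SK to RN7SL1 were tested by exact permutation (scipy 1.17.1). Sharing of a replicate number was checked between ADAR3 IP and pre-immune IP over deviations from group means. Correlations were -0.00165 to 0.0236, so replicate numbers were not used to pair libraries. Input libraries were not part of this check.

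Named genes were all members found, plus the closest gene to RN7SK and RN7SL1. The RefSeq table of 59792 genes held 0 Ensembl IDs, so the partner proteins of these particles, other small RNAs, the mRNA of ADAR3 and cell type markers were not analysed here. Members were named by the IDs given for them. RN7SL2 matched 0 rows, so its ratio to RN7SL1 was not formed, and the ratio of RN7SK was taken to RN7SL1 alone.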

Additional observations from a re-analysis of the deposited data

Results flagged for a closer look

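VTRNA1-1 in ADAR3 IP had 1 library apart from the other 3: replicate 2 held 4 reads (0.133 CPM) and the others 0. It was the only one marked among 26 groups of 4 values put to Dixon's test, the CPM and the read ratios of each RNA in each group. With 3 libraries at 0, the test marks any value above 0, so this mark was fixed in advance. The rate of about 1 in 20 by chance does not apply to such ties.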

How the results depend on the processing

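The count of 3 RNAs lower with the ADAR3 antibody than with serum held in all alternatives run except DESeq2, which gave 4 by adding RN7SK, and 0 were higher in any. RN7SL1, RMRP and RPPH1 kept direction and call in all 21 alternatives each, at log2 differences of -3.42 to -2.98, -2.74 to -2.40 and -1.86 to -1.58. Their highest adjusted p were 0.0115, 0.0118 and 0.0310, all with limma without a variance trend. TERC passed in none of 20 and turned sign with DESeq2, at -0.052. The counts of RNAs whose IP libraries all lay below input stayed at 6 in each IP with library totals that leave the 6 RNAs out. They could not fall, because this raises CPM more in input, where the 6 RNAs hold 2.53% to 3.37% of reads. In an IP library they hold at most 0.391%. Leaving out a library cannot lower these counts either, because groups that lie apart stay apart. Neither alternative checks them.

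With 10 reads added to each count, the log2 ratio of RN7SK to RN7SL1 turned to 0.21 for ADAR3 IP minus input and weakened to -0.32 for pre-immune IP minus input (adjusted p = 0.571 for both by exact permutation), where RN7SK itself has 5 to 27 reads in an IP library. RMRP to RPPH1 was then -0.85, -1.61 and -0.76 (ADAR3 IP minus pre-immune IP, ADAR3 IP minus input, pre-immune IP minus input), each with an adjusted p of 0.0571, as fewer of the 6 tests were at the smallest p. With the replicate block in limma the same 3 RNAs were called (3 lower, 0 higher; RN7SL1 adjusted p = 1.232e-06). With the replicate block in the ratios, an exact sign permutation over 4 numbers gives no p under 0.125, so no difference can pass. The 4 that had passed kept their values with an adjusted p of 0.15: -0.85, -1.62 and -0.76 for RMRP to RPPH1 and -1.52 for RN7SK to RN7SL1. Among pre-immune IP libraries, the same-numbered 1 was the best match for 0 of 4 ADAR3 IP libraries.

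Leaving out 1 library, a separate pair has p = 0.0571 by exact permutation, which is as small as 4 against 3 allows. RMRP to RPPH1 then ranged from -0.97 to -0.68 (ADAR3 IP minus pre-immune IP), -1.66 to -1.56 (ADAR3 IP minus input) and -0.93 to -0.65 (pre-immune IP minus input). The untested RN7SL1 to RPPH1 ranged from -1.56 to -1.39, -0.80 to -0.63 and 0.71 to 0.81, and RN7SK to RN7SL1 from 0.57 to 1.34, -0.71 to -0.37 and -1.89 to -1.13. The ratio of RN7SL1 to RN7SL2 was not run. Depth limits RN7SK and VTRNA1-1, at 5 to 27 and 0 to 4 reads in an IP library.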
